A study of Mus musculus with 12 samples.

Results

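The classical complement chains C1qa, C1qb and C1qc and 7 further genes of tissue macrophages (Apoe, Cd5l, Mertk, Axl, Cd163, Slc40a1 and Gpnmb) were followed through RNA-seq of sorted mouse bone marrow HSCs, as 10 of the 55335 genes in the count table. The genes were named as a list, and some of them were chosen by their higher values in Ythdc1Δ/Δ HSCs in an earlier analysis of the same libraries. The difference between genotypes is therefore given for them as a description, without a test. All 10 genes were found by symbol, and all 10 passed the filter on low counts that left 18234 genes.

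Macrophages of the bone marrow lie among the blood-forming cells, engulf the nuclei that erythroblasts expel, and clear dying cells and aged red cells. C1q, built from A, B and C chains, is made largely by such macrophages. It binds antibody complexes and dying cells and starts the classical complement pathway. MERTK and AXL are receptor kinases that recognise dying cells through bridging proteins. CD163 takes up haemoglobin bound to haptoglobin, and ferroportin, the product of Slc40a1, exports the recovered iron. APOE carries lipid out of cells, CD5L is a protein that macrophages secrete, and GPNMB is a membrane glycoprotein of lysosome-rich macrophages.

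The Ythdc1Δ/Δ donors had floxed Ythdc1 alleles and Mx1-Cre (Ythdc1 fl/fl Mx1-Cre) and were given pIpC, and the Ythdc1+/+ donors had Mx1-Cre without floxed alleles and were given pIpC too. Both groups thus carried the interferon-inducible Cre, which also recombines outside HSCs, and both had received an interferon inducer. The labels give the strain C57B6, and the methods give donors 8 weeks old, enrichment with anti-CD117 beads and a sort against CD11b, Gr1, CD4, CD8, Ter119 and B220. By their titles, the 12 libraries are 2 each of the Ythdc1Δ/Δ samples KO176, KO177 and KO209 and of the Ythdc1+/+ samples WT178, WT180 and WT207. Whether each of these is a separate mouse is not stated, and the p-values cover the spread among samples only, part or all of which may be technical. Counts of both libraries of a sample were added, giving 3 samples per genotype.

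The summed samples held 45939230 to 46937648 counts in Ythdc1Δ/Δ and 42098649 to 48095239 counts in Ythdc1+/+ HSCs. Levels are given in CPM, a gene's counts scaled to the total of its sample. The HSC label was compared with 12 markers of HSCs and multipotent progenitors such as Kit, Procr and Hlf. They summed to 2377 to 2612 CPM in Ythdc1Δ/Δ and 2837 to 3030 CPM in Ythdc1+/+ samples. The largest part was Cd34, with means of 1292 CPM in Ythdc1Δ/Δ and 1296 CPM in Ythdc1+/+ samples. In the same order Procr was at 34.0 and 47.7 CPM and Slamf1 at 7.23 and 9.45 CPM. Flt3 (Flk2), which the paper's LT-HSC gate excludes, was at 423 and 369 CPM. Markers of neutrophils and their precursors had higher sums, given below, and the purity of the sort was not tested. The 10 macrophage markers, among them Adgre1, Csf1r, Cd68, Siglec1, Mrc1, Vcam1, Spic, Fcgr1 and Ms4a7, summed to 94.2 to 175 CPM in Ythdc1Δ/Δ and 76.5 to 120 CPM in Ythdc1+/+ samples, and none of them was at 0 in all samples. Most of the sum was Cd68 and Csf1r, which monocytes also express, while Adgre1, which encodes F4/80, averaged 2.59 ± 0.397 CPM in Ythdc1Δ/Δ and 1.88 ± 0.0237 CPM in Ythdc1+/+ samples (SD, n = 3 each). Across all genes, edgeR's quasi-likelihood test called 16 higher and 9 lower in Ythdc1Δ/Δ HSCs (adjusted p under 0.05). The log2 fold changes had a median of -0.01.

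The 3 C1q genes are neighbours on the minus strand of chromosome 4 (mm10), within 18675 bases. C1qb spans positions 136880129 to 136886187, C1qc 136889804 to 136893065 and C1qa 136895917 to 136898803. The gap is 3616 bases between C1qb and C1qc and 2851 bases between C1qc and C1qa. No exon base of these or of the other 7 genes is shared with an exon of another gene of the table, which matters because reads were counted without strand.

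The stretches that lie before the annotated starts of C1qb and C1qc are shown because these genes moved together over the samples, that of Gpnmb because it had the largest genotype difference of the 10 genes, and that of Apoe because it was the most abundant and went the other way. They are taken from RefSeq promoters on GRCm38.p6, read 5′ to 3′ on the strand of the gene, with bases inside any annotated exon left out. They lie at chr4:136886201-136886450 and chr4:136893066-136893164, both minus strand, chr6:49036268-49036517, plus strand, and chr7:19699189-19699438, minus strand. Capitals mark matches on either strand to GAGGAA, the core that PU.1 binds, to TGCTGA, a half-site of MAF factors, and to AGGTCA, a half-site of nuclear receptors.
C1qb: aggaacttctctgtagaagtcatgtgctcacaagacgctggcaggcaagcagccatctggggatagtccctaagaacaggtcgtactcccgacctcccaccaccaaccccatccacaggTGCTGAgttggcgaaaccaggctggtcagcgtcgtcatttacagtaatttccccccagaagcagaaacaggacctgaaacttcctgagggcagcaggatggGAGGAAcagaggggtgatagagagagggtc
C1qc: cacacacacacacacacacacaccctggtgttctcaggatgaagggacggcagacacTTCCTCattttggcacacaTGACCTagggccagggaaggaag
Gpnmb: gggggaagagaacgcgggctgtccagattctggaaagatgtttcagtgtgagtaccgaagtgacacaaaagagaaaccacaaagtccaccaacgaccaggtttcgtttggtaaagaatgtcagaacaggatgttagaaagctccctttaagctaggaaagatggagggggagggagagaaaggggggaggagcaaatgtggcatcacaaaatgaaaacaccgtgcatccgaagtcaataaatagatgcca
Apoe: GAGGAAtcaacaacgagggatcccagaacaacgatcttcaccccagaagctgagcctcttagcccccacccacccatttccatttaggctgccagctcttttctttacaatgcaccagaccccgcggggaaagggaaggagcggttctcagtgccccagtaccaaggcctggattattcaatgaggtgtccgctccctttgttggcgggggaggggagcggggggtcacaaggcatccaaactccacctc

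Promoter windows of 250 bases before a start were matched for 8 of the 10 genes. A gene was counted if any of its windows held the letters, whereas the values for all genes count single windows. The counts of genes and the shares of windows are thus unlike measures, and no enrichment is read from them. GAGGAA was in the windows of 5 of the 8, Apoe, Axl, C1qb, C1qc and Cd5l, against 23.3% of 32851 windows of all genes. TGCTGA was in those of C1qb and Cd5l, against 16.1% of all windows, and AGGTCA in that of C1qc, against 4607 of all windows. Neither CACGTG, the E-box that MITF and TFE factors bind (6.02% of all windows), nor TGACTCA, the AP-1 site (4.46%), was in the window of any of the 8. The motifs were searched on both strands, and a TGCTGA followed by CTCA overlaps TGACTCA. A match shows the letters only.

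Taken over the 10 genes, 7 were higher and 3 lower in Ythdc1Δ/Δ HSCs, with 0.55 as the median log2 fold change (0.89 without WT207). In bulk samples, more cells of a type and more RNA per cell cannot be told apart. The Ythdc1Δ/Δ samples lay wholly above the Ythdc1+/+ samples for C1qb, C1qc and Gpnmb, where 6.14% of all tested genes did so, and wholly below them for Apoe, where 9.35% did so. Gpnmb was also the 1 gene of the 10 among the 16 called higher, which were 0.0877% of all tested genes, and it was not among the called genes without KO177, WT178, WT180 or WT207, nor with upper quartile scaling, a minimum count of 50 or edgeR's legacy option. Since these values chose some of the genes, nothing is read from the counts.

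**Figure D1:**
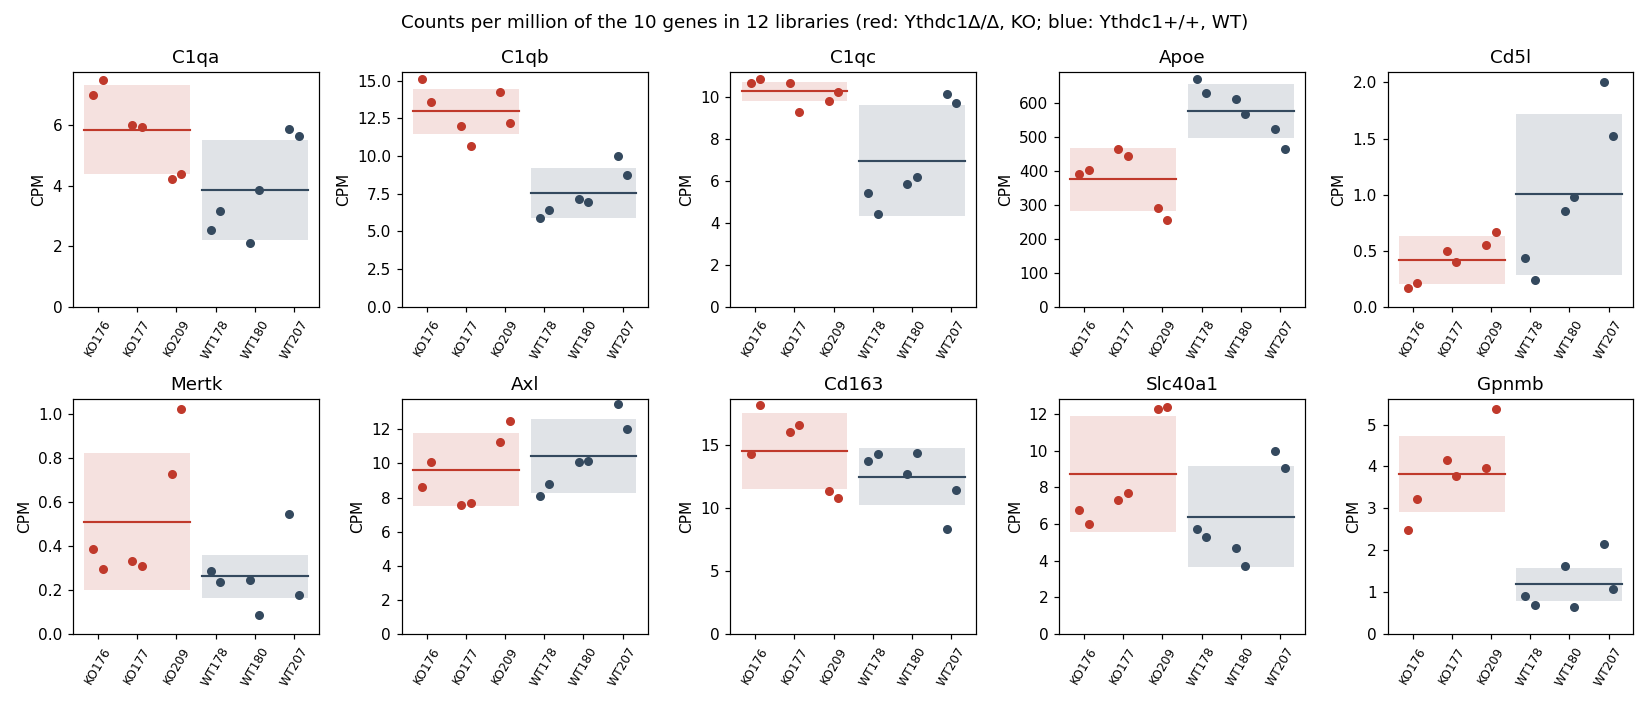
Level in CPM (vertical axes, each from 0) of the 10 genes in each library (points; 2 libraries for each sample number on the horizontal axis), with Ythdc1Δ/Δ (KO, red) left of Ythdc1+/+ (WT, blue). Lines show the mean of 3 summed samples and bands 1 SD on either side. The libraries of the genotypes do not overlap for C1qb and Gpnmb. For Apoe the lowest WT207 library (463 CPM) is just under the highest KO177 library (464 CPM), and the WT207 libraries reach the Ythdc1Δ/Δ levels of C1qa and C1qc.

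C1qb, the B chain, was measured at 14.3, 11.4 and 13.2 CPM in KO176, KO177 and KO209, against 6.15, 7.05 and 9.36 CPM in WT178, WT180 and WT207. The lowest Ythdc1Δ/Δ sample was above the highest Ythdc1+/+ sample. This gave a log2 fold change of 0.84 with a standard error of 0.19.

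C1qc, the C chain, was at 10.76, 9.9999 and 10.01 CPM in KO176, KO177 and KO209, against 4.92, 6.03 and 9.93 CPM in WT178, WT180 and WT207. The groups did not overlap, but WT207 lay only just under the Ythdc1Δ/Δ samples, which were nearly equal to each other. On the log2 scale the difference was 0.62 (standard error 0.23), 0.45 without WT178 and 0.93 without WT207.

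C1qa, the A chain, had 7.24, 5.97 and 4.31 CPM in KO176, KO177 and KO209, against 2.85, 2.97 and 5.75 CPM in WT178, WT180 and WT207. Here the groups overlapped, since WT207 was above KO209. The fitted log2 fold change was 0.67 (standard error 0.31), 0.42 without KO176 and 1.04 without WT207.

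The 3 chains together reached 32.3, 27.3 and 27.5 CPM in KO176, KO177 and KO209, against 13.9, 16.1 and 25.0 CPM in WT178, WT180 and WT207. The means were 29.1 ± 2.84 CPM in Ythdc1Δ/Δ and 18.3 ± 5.91 CPM in Ythdc1+/+ HSCs (SD, n = 3 each), and most of the spread among the Ythdc1+/+ samples came from WT207. The sample numbers fall into a lower range (KO176, KO177, WT178 and WT180) and an upper range (KO209 and WT207). In the lower range the C1q sum of Ythdc1Δ/Δ was 1.99 times that of Ythdc1+/+ (29.8 against 14.99 CPM), and between KO209 and WT207 it was 1.10 times (27.5 against 25.0 CPM).

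The proportion of the 3 chains to each other was not used in choosing the genes, and it was compared on counts per kilobase of exon. C1qb was the most abundant chain in every sample. It made up 51.2%, 48.9% and 56.6% of the chains in KO176, KO177 and KO209, against 51.7%, 52.0% and 44.6% in WT178, WT180 and WT207. C1qa made up 27.1%, 26.9% and 19.3% in KO176, KO177 and KO209, against 25.0%, 22.9% and 28.7% in WT178, WT180 and WT207.

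The mean share of C1qa was 24.4% ± 4.43 in Ythdc1Δ/Δ and 25.6% ± 2.91 in Ythdc1+/+ samples (SD, n = 3 each; 2-sided exact permutation test, p = 0.8). For C1qb the means were 52.2% ± 3.93 in Ythdc1Δ/Δ and 49.4% ± 4.16 in Ythdc1+/+ (exact permutation test, p = 0.6), and for C1qc 23.4% ± 1.47 in Ythdc1Δ/Δ and 25.0% ± 1.70 in Ythdc1+/+ (exact permutation test, p = 0.4). The differences were under the SDs of both groups for C1qa and C1qb, and for C1qc the difference of -1.64 percentage points lay between these SDs. The smallest p that 3 samples against 3 allow is 0.1, so this design could not pass the threshold of 0.05. The sign of the C1qa difference turned when KO209 was left out (1.41 percentage points, Ythdc1Δ/Δ minus Ythdc1+/+, against -1.15 with all samples) or WT207 (0.42).

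**Figure D2:**
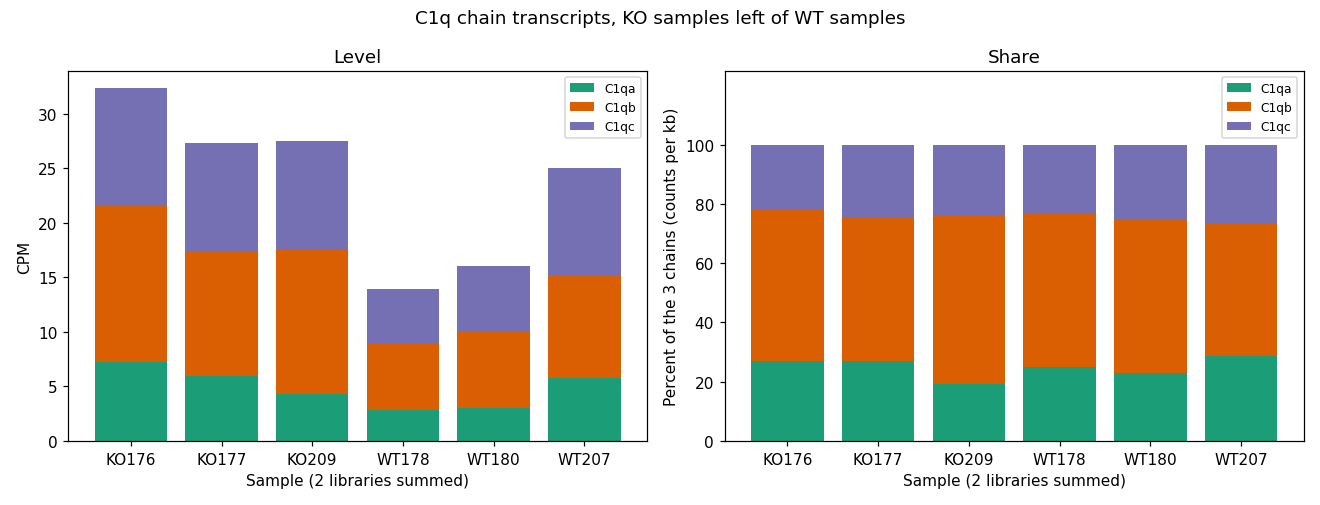
Left, level of the C1q chains in CPM (vertical axis, stacked) in the 6 summed samples (horizontal axis, Ythdc1Δ/Δ samples KO176 to KO209 left of Ythdc1+/+ samples WT178 to WT207). Right, percent of each chain among the 3 on counts per kilobase. The sums are 27.3 to 32.3 CPM in Ythdc1Δ/Δ and 13.9 to 25.0 CPM in Ythdc1+/+ samples, and C1qb takes the largest share in all 6.

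Of the receptors for dying cells, Mertk was barely detected, with 16, 15 and 40 reads in KO176, KO177 and KO209, against 11, 8 and 16 reads in WT178, WT180 and WT207. This corresponds to 0.511 ± 0.312 CPM in Ythdc1Δ/Δ and 0.263 ± 0.0974 CPM in Ythdc1+/+ HSCs (SD, n = 3 each). The groups overlapped, and the higher Ythdc1Δ/Δ mean rested on KO209. Its log2 fold change was 1.0 (standard error 0.46), and 0.46 without KO209.

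Axl, the related receptor, was at 9.37, 7.64 and 11.9 CPM in KO176, KO177 and KO209, against 8.43, 10.1 and 12.7 CPM in WT178, WT180 and WT207. The genotypes overlapped throughout. Its log2 fold change was -0.07 (standard error 0.19), and with 1 sample left out it ran between -0.18 (without WT178) and 0.07 (without WT207), above 0 also without KO177.

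Cd163, the haemoglobin scavenger receptor, was at 16.2, 16.3 and 11.1 CPM in KO176, KO177 and KO209, against 14.01, 13.5 and 9.88 CPM in WT178, WT180 and WT207. Within each range of numbers the Ythdc1Δ/Δ samples were higher, and over both ranges the genotypes overlapped. The log2 fold change was 0.28 (standard error 0.23). It was 0.12 without WT207, 0.13 without KO176 and 0.49 without KO209.

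Slc40a1, the iron exporter, had 6.37, 7.49 and 12.3 CPM in KO176, KO177 and KO209, against 5.51, 4.20 and 9.50 CPM in WT178, WT180 and WT207. KO209 and WT207 were the highest samples of their genotypes, and the groups overlapped. The log2 fold change was 0.48 (standard error 0.29). It was 0.24 without KO209, 0.26 without WT180 and 0.85 without WT207.

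Apoe was the most abundant of the 10 genes and went the other way, with 397, 455 and 273 CPM in KO176, KO177 and KO209, against 650, 589 and 492 CPM in WT178, WT180 and WT207. Every Ythdc1Δ/Δ sample was below every Ythdc1+/+ sample. Fitted over all samples, the log2 fold change was -0.56 (standard error 0.23), and -0.33 without KO209. Apoe lies on chromosome 7 from 19696109 to 19699188, minus strand, and besides macrophages many other cell types express it. Per kilobase it had 175 CPM in Ythdc1Δ/Δ and 270 CPM in Ythdc1+/+ HSCs, rank 340 and rank 191 among 45534 genes with reads.

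The next highest gene per kilobase was C1qb, with 11.9 CPM in Ythdc1Δ/Δ and 6.91 CPM in Ythdc1+/+ HSCs (rank 4735 and rank 6412). The ratio of Apoe to the C1q sum in CPM was 12.3, 16.6 and 9.93 in KO176, KO177 and KO209, against 46.7, 36.7 and 19.7 in WT178, WT180 and WT207. Apoe and C1q were thus not in a fixed proportion over the samples. KO177 (16.6) and WT207 (19.7) were the nearest samples of the 2 genotypes. The ratio rests on the values that chose some of the genes, so nothing is read from its difference between genotypes.

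Cd5l, the secreted macrophage protein, had 9, 21 and 28 reads in KO176, KO177 and KO209, against 14, 44 and 78 reads in WT178, WT180 and WT207. In CPM these were 0.417 ± 0.211 in Ythdc1Δ/Δ and 1.002 ± 0.718 in Ythdc1+/+ HSCs (SD, n = 3 each). The genotypes overlapped, and in both of them the sample from the upper range of numbers was the highest. On the log2 scale the fitted difference was -1.23 (standard error 0.56), and -0.60 without WT207.

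Gpnmb, the glycoprotein of lysosome-rich macrophages, had 2.85, 3.97 and 4.66 CPM in KO176, KO177 and KO209, against 0.808, 1.14 and 1.602 CPM in WT178, WT180 and WT207. The groups did not overlap, and its log2 fold change of 1.73 (standard error 0.26) was the largest of the 10 genes. It was 3.50 times higher in Ythdc1Δ/Δ within the lower range (3.41 against 0.976 CPM) and 2.91 times higher in KO209 than in WT207. Gpnmb lies on chromosome 6 from 49036546 to 49070929, plus strand. Its Ythdc1+/+ counts were low, 34, 55 and 71 reads in WT178, WT180 and WT207.

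The repeat libraries of a sample show how far such low levels can be read. Between the 2 libraries of a number, C1qb differed at most 1.17-fold, C1qc 1.23-fold, Axl 1.17-fold and Apoe 1.13-fold. C1qa differed at most 1.83-fold and Gpnmb 2.55-fold, both in WT180, and Mertk 3.05-fold in WT207, where a library held as few as 4 reads.

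**Figure D3:**
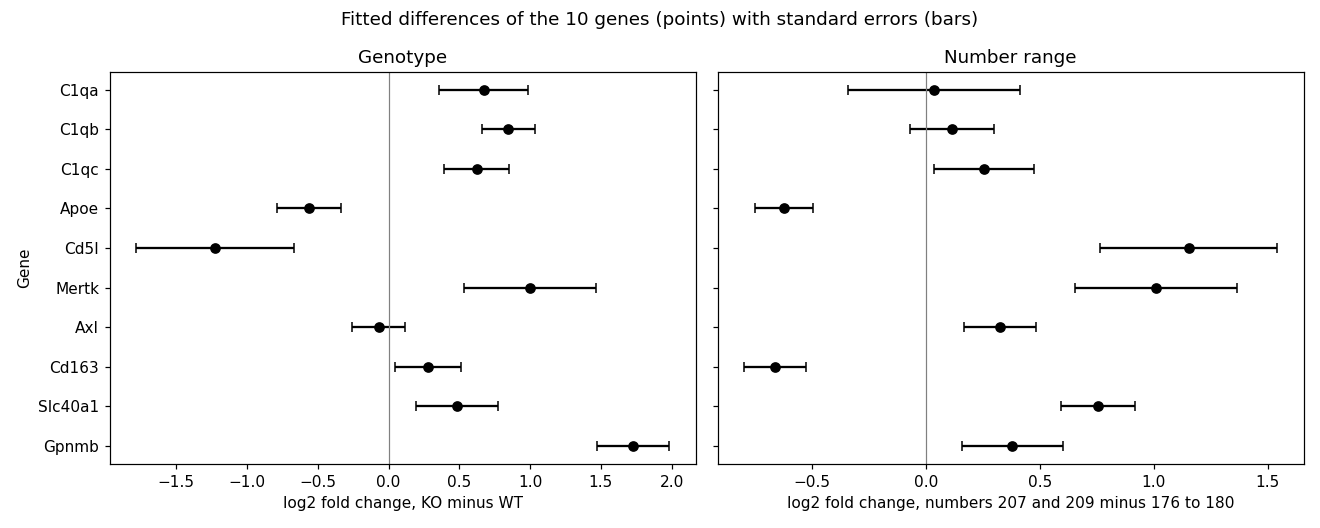
Left, log2 fold change of the 10 genes (rows) between Ythdc1Δ/Δ and Ythdc1+/+ samples (KO minus WT). Right, the log2 fold change between the samples of the upper number range (KO209 and WT207) and those of the lower one (upper minus lower). Points are the edgeR estimates and bars their standard errors. Gpnmb is the highest at left (1.73), whereas at right the 3 C1q chains are at 0.04 to 0.26 (-0.82 to 0.90 when 1 sample is left out) and Apoe and Cd163 are the lowest.

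The range of the sample numbers is a property that the choice of the genes did not use, and it was tested with genotype as a covariate. KO209 and WT207 were compared with KO176, KO177, WT178 and WT180. None of the 10 genes passed an adjusted p of 0.05 in edgeR's quasi-likelihood test, where 0.378% of all tested genes did (69 genes, 28 higher and 41 lower in the upper range). At an unadjusted p under 0.05 there were 5 of the 10 genes, against 19% of all tested genes, and DESeq2 called 3. Over all alternatives between 0 and 5 of the 10 were called. The 5 came only from the 12 libraries as separate samples, with or without the title digit as a block. Those fits treat the 2 libraries of a sample as independent, which they are not. With voomLmFit, which allowed for likeness between libraries of a sample, 4 were called, Slc40a1, Cd5l, Cd163 and Apoe (adjusted p = 0.00169 to 0.0446). Without a filter, edgeR called the same 3 as DESeq2, and with upper quartile scaling it called Slc40a1 only. RLE scaling, a minimum count of 50, the legacy option and the fit without a term for genotype called none.

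The 3 that DESeq2 called were Slc40a1, Cd163 and Apoe. Slc40a1 was at 12.3 and 9.50 CPM in KO209 and WT207, against 4.20 to 7.49 CPM in the samples of the lower range (log2 fold change 0.75, edgeR adjusted p = 0.0710). Cd163 was at 11.1 and 9.88 CPM in KO209 and WT207, against 13.5 to 16.3 CPM in the lower range (log2 fold change -0.66, edgeR adjusted p = 0.0634). Apoe was lower in the upper range within each genotype (log2 fold change -0.62, edgeR adjusted p = 0.0630). The lowest adjusted p over the alternatives was 0.000532 for Slc40a1 and 0.000549 for Apoe, both with edgeR on the 12 libraries as separate samples. Those libraries are not independent. For Cd163 the lowest was 0.000889, with DESeq2. Among fits with both KO209 and WT207, the highest edgeR adjusted p was 0.236 for Slc40a1, 0.188 for Cd163 and 0.363 for Apoe, without a term for genotype. Without KO209 the log2 fold changes were 0.89, -0.56 and -0.42 in this order.

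With all samples, the log2 fold changes of the C1q chains between the ranges were 0.11 for C1qb (edgeR adjusted p = 0.771), 0.26 for C1qc (edgeR adjusted p = 0.560) and 0.04 for C1qa (edgeR adjusted p = 0.970). These values hung on single samples. C1qa was at 0.90 without KO209 and -0.82 without WT207 (edgeR adjusted p = 0.199, its lowest over the alternatives, against 0.992 at the highest), C1qc at 0.77 without KO209 and -0.26 without WT207, and C1qb at 0.42 without KO209 and -0.17 without WT207. For Gpnmb it was 0.38 (edgeR adjusted p = 0.378), and 0.62 without KO209 or 0.25 without WT207. The highest adjusted p-values of Slc40a1, Cd163 and Apoe were those without KO209, where WT207 alone stood for the upper range.

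Summed marker levels of other cells also differed between the ranges. The 10 erythroid markers summed to 80.5 and 86.0 CPM in KO209 and WT207, against 53.8 to 65.2 CPM in the lower range. Of the 10, 7 were higher and 3 lower in the upper range, and 5 were called higher by edgeR, against 0.154% of all tested genes. The macrophage markers summed to 94.2 and 76.5 CPM in KO209 and WT207, against 104 to 175 CPM in the lower range, with 7 of 10 lower and none called. The part of these cells in the values of Slc40a1 and Cd163 was not tested.

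**Figure D4:**
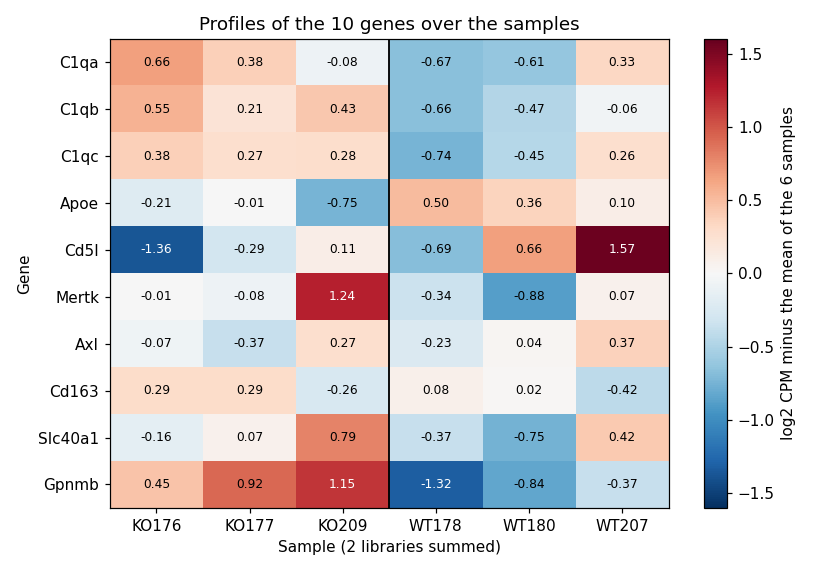
Log2 CPM of the 10 genes (rows) in the 6 summed samples (columns, Ythdc1Δ/Δ samples left of the line, Ythdc1+/+ samples right of it), each minus the mean of the gene over the samples, shown by colour and printed in each cell. The C1q chains are lowest in WT178 and WT180, Apoe is lowest in KO209 (-0.75), and Cd5l is highest in WT207 (1.57).

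The profiles of the 10 genes over the 6 samples fell into several patterns. The mean profile of the C1q chains, each centred on its own mean in log2 CPM, was 0.53, 0.29 and 0.21 in KO176, KO177 and KO209, against -0.69, -0.51 and 0.18 in WT178, WT180 and WT207. Among 13561 genes with a mean of at least 1 CPM, C1qc, C1qb and C1qa ranked 1, 2 and 5 in closeness to it, as they must in part because they define it. Slc40a1 was the next of the 10 genes, at rank 2801, with a root mean square difference of 0.42 on the log2 scale, and Axl, Cd163, Gpnmb and Apoe were at ranks 5566 to 12742. Cd5l and Mertk were below 1 CPM and were not ranked.

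The closest genes outside the list were Plxnd1 (root mean square difference 0.152), Gm12261 (0.154), Kifc3 (0.161), A530064D06Rik (0.177) and Gm5297 (0.183). Plxnd1, a plexin receptor for semaphorins, was at 4.32, 4.21 and 3.92 CPM in KO176, KO177 and KO209, against 2.11, 2.85 and 3.36 CPM in WT178, WT180 and WT207. With the 12 libraries in place of the 6 samples none of these 5 remained among the nearest 5. A530064D06Rik was then at rank 18, Gm5297 at 31, Plxnd1 at 47, Kifc3 at 377 and Gm12261 at 12741.

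Genes related by function were read from 6 lists, complement, uptake of apoptotic cells, iron and heme handling, lipid handling, lysosome with MITF/TFE targets, and macrophage identity. Together they held 173 tested genes beside the 10, a few of them in more than 1 list. A single gene of the 173 passed an adjusted p of 0.05 in edgeR's test between genotypes, against 0.137% of all tested genes. At an unadjusted p under 0.05, 29 were higher (16.8%, against 4.28% of all tested genes) and 7 lower (4.05%, against 5.2%). The lists were chosen with earlier results of these data known, so these shares are a description and not independent evidence. The median log2 fold change was 0.10 over the lists and -0.01 over all tested genes.

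The called gene was Serping1, the inhibitor of the C1r and C1s proteases that C1q activates. It was at 2.98, 3.37 and 5.51 CPM in KO176, KO177 and KO209, against 0.974, 0.915 and 1.53 CPM in WT178, WT180 and WT207, so the groups did not overlap. Its log2 fold change was 1.83 (standard error 0.27, edgeR adjusted p = 0.0456, higher in 3 of 3 samples). The call was lost without KO177, WT178, WT180 or WT207 (adjusted p = 0.113 to 0.322) and with upper quartile scaling (0.0672), a minimum count of 50 (0.0938) or edgeR's legacy option (0.0549), and it held without KO176 or KO209. Over all alternatives the adjusted p ran between 2.445e-07 (DESeq2) and 0.322.

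Of 31 complement genes, 18 were above and 13 below 0, with a median log2 fold change of 0.12. Besides Serping1, low unadjusted p-values belonged to C5ar2, a receptor for C5a (log2 fold change 1.21, edgeR adjusted p = 0.286), C3, the central component (0.66, 0.297), and Fcnb, a ficolin of granulocyte precursors (0.58, 0.302). C3 was at 14.6, 11.5 and 20.9 CPM in KO176, KO177 and KO209, against 9.45, 9.67 and 11.4 CPM in WT178, WT180 and WT207, with KO177 only just above WT207.

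Among 29 genes for the uptake of apoptotic cells the median was 0.09 and none was called, while 3 had an unadjusted p under 0.05 above 0 and 1 below. Those were P2ry6, a receptor for extracellular UDP (1.18, edgeR adjusted p = 0.329), Cd300lf, a phosphatidylserine receptor (0.54, 0.402), Sirpa, which binds CD47 (0.38, 0.471), and Scarf1, a scavenger receptor (-0.35, 0.453). Gas6 and Pros1, which encode the bridging ligands of MERTK and AXL, were at 8.68 and 4.09 CPM in Ythdc1Δ/Δ and at 6.82 and 4.29 CPM in Ythdc1+/+ HSCs. Both were chosen for their role after their values were seen, and neither passed the test.

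For iron and heme, none of 29 genes was called, and the median was 0.08. The smallest p-values were those of Cp, the ferroxidase ceruloplasmin (1.39, edgeR adjusted p = 0.132), Blvrb, a biliverdin reductase (-0.51, 0.220), Tfrc, the transferrin receptor (0.61, 0.338), and Slc39a8, a metal importer (0.47, 0.342). Blvrb was at 27.9, 31.3 and 27.7 CPM in KO176, KO177 and KO209, against 41.8, 42.3 and 44.3 CPM in WT178, WT180 and WT207, and the samples of each genotype were close together.

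In the lipid list of 25 genes, with a median of 0.14 and none called, Lpl, lipoprotein lipase, came first (1.19, edgeR adjusted p = 0.163). Fabp4, a fatty acid binding protein (1.04, 0.286), was also among the genes with low unadjusted p-values, as was Pltp, the phospholipid transfer protein (1.33, 0.322). Lpl was at 4.54, 5.77 and 4.92 CPM in KO176, KO177 and KO209, against 2.02, 1.66 and 3.27 CPM in WT178, WT180 and WT207, without overlap.

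In the lysosome list none of 31 genes was called and the median was 0.09, with Atp6v0d2, a subunit of the proton pump (1.597, edgeR adjusted p = 0.194), Lgmn, the protease legumain (0.95, 0.270), Cd63, a tetraspanin of late endosomes (-0.45, 0.304), and Spp1, osteopontin (0.61, 0.343), in front. In the macrophage identity list none of 41 tested genes was called, and the median was 0.26, with 30 genes above 0 and 11 below. At an unadjusted p under 0.05, 6 were higher (14.6%, against 4.28% of all tested genes) and 0 lower (against 5.2% of all tested genes). Vsig4, Marco, Clec4f, Timd4, Folr2 and Lyve1 were listed too but fell below the filter on low counts. Their genotype means were 0.015 to 0.206 CPM. Lgmn led the macrophage identity list as well, before Vcam1, the adhesion molecule (0.72, 0.297), Ms4a7 (0.88, 0.389) and Sirpa.

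**Figure D5:**
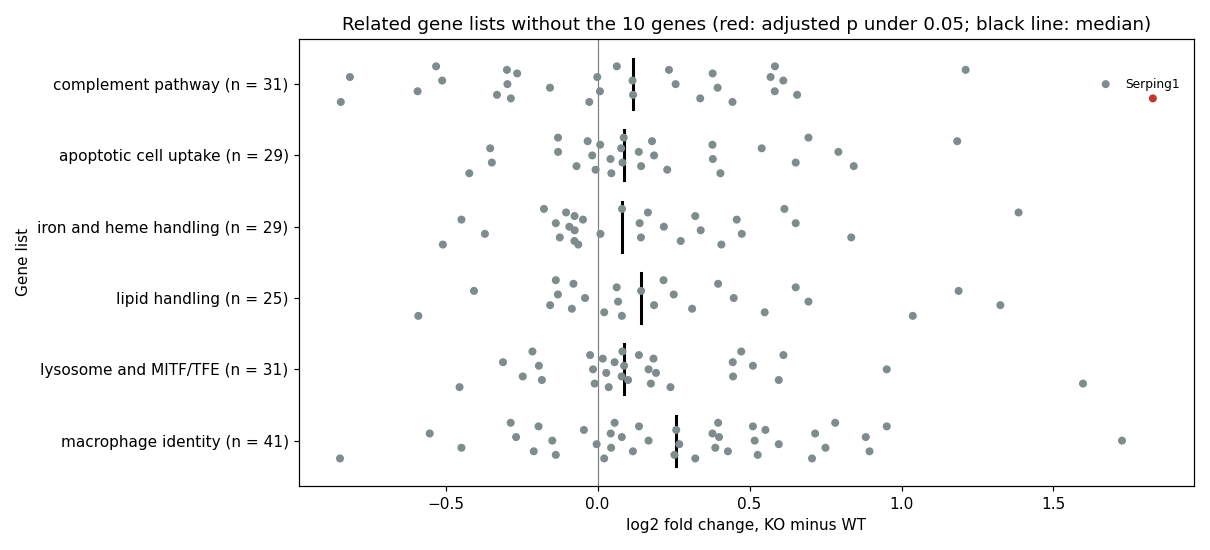
Log2 fold change between Ythdc1Δ/Δ and Ythdc1+/+ samples (horizontal axis, KO minus WT) of the tested genes of 6 related lists (rows, n genes each; the 10 genes left out). Points are genes, set apart vertically only to be seen, black lines are medians (0.08 to 0.26), and the red point is Serping1, the single gene with an adjusted p under 0.05.

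Summed marker levels of several other cells also differed between the genotypes, though only stroma held called genes. The 10 markers of neutrophils and their precursors summed to 13098 to 19457 CPM in Ythdc1Δ/Δ and 10855 to 12883 CPM in Ythdc1+/+ samples, with all 10 above 0 and none called. The monocyte markers summed to 1805 to 2457 CPM in Ythdc1Δ/Δ and 1597 to 1686 CPM in Ythdc1+/+ samples, with 9 of 9 tested above 0, and those of B and plasma cells to 299 to 652 CPM in Ythdc1Δ/Δ and 167 to 227 CPM in Ythdc1+/+ samples, with 9 of 10 above 0. For stroma 9 of 10 were above 0 and 3 were called higher, against 0.0877% of all tested genes called higher. The stromal sums overlapped, at 64.7 to 92.2 CPM in Ythdc1Δ/Δ and 59.1 to 76.5 CPM in Ythdc1+/+ samples. Most of the sum was Pdgfrb, which went the other way, with means of 51.2 CPM in Ythdc1Δ/Δ and 61.0 CPM in Ythdc1+/+ samples. The stromal median log2 fold change of 1.18 was the highest of the marker lists. Above 0 were also 9 of 10 erythroid, 4 of 8 dendritic cell, 3 of 6 T and NK cell and 4 of 7 endothelial markers, none of them called.

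By contrast, 6 of 6 tested megakaryocyte markers and 10 of 12 markers of HSCs and multipotent progenitors were below 0. Within the macrophage list 9 of 10 were above 0 and Spic, a factor of iron-recycling macrophages, was the exception. It averaged 2.69 ± 0.863 CPM in Ythdc1Δ/Δ and 3.81 ± 0.0479 CPM in Ythdc1+/+ samples (SD, n = 3 each). The part of any of these cells, stroma among them, in the values of C1q, Gpnmb, Apoe, Serping1 and the other related genes was not tested.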

How the data were processed

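RNA-seq of sorted bone marrow HSCs was analysed from a table of read counts per gene that the authors deposited. Per the file headers and the labels, the authors counted read pairs over exons with featureCounts 2.0.1 on GENCODE vM23 genes of mm10 without regard to strand, and the counts were not normalized. The paper's methods also describe FPKM values, which were not used here. All 12 columns were matched to the labels by title, and identifiers were matched to symbols for 55154 of 55335 genes. No mitochondrial gene had reads.

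The 2 libraries of a sample number were summed, since they were more alike than other libraries of their genotype. CPM values are counts over total counts. Genes were kept by filterByExpr (minimum count 10, minimum total 15), scaled by TMM, and tested with edgeR 4.0.16 (quasi-likelihood, robust) in R 4.3.3 with Benjamini-Hochberg adjustment over 18234 genes. Log2 fold changes are Ythdc1Δ/Δ minus Ythdc1+/+, and standard errors derive from the F statistic. On simulated data the step recovered 37% of 2-fold changes between genotypes and 41% between ranges. Of 4-fold changes it recovered 88% and 84%. A gene that was not called can therefore still differ 2-fold. The alternatives were RLE and upper quartile scaling, DESeq2 1.42.0, no filter, a minimum count of 50, the legacy option, the 12 libraries as separate samples, with limma 3.58.1 (voomLmFit) or with a block, a term for the number range, and each sample left out. Figures were drawn with matplotlib 3.10.9.

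The 10 genes, the related lists and the marker lists were chosen with earlier results of these data known. Named from each list were every gene called and up to 4 others with the smallest p, and the 5 genes closest to the C1q profile. A few genes that this rule names are not reported here. Values within each range of numbers were added with the values known. Of 209 listed related genes, 207 were in the table. Sequences are from RefSeq (GRCm38.p6), which shares its chromosome coordinates with mm10.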

Additional observations from a re-analysis of the deposited data

Results flagged for a closer look

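C1qa was the only one of the 10 genes for which the genotypes stood in opposite orders in the 2 ranges of sample numbers. In the lower range (KO176, KO177, WT178 and WT180) both Ythdc1Δ/Δ samples were above both Ythdc1+/+ samples, and the mean of Ythdc1Δ/Δ was 2.27 times that of Ythdc1+/+ (6.60 against 2.91 CPM). In the upper range KO209 was at 0.749 times WT207 (4.31 against 5.75 CPM). The difference between the ranges was not tested, and the upper range holds a single sample per genotype. No library stood apart from the other 5 of its genotype in any of the 10 genes by Dixon's criterion, which was applied to 20 groups of 6 libraries. Its rate of about 1 flag in 20 by chance holds for independent values, which the 2 libraries of a sample are not. A sample that deviates in both of its libraries can go unflagged, so nothing is read from the absence of flags.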

How the results depend on the processing

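Of the 10 genes, 9 kept the sign of their genotype difference under every alternative that gave a value, and Axl changed sign without KO177 or WT207. The median of the 10 was 0.49 to 0.58 under the alternatives that kept all samples and 0.43 to 0.89 when 1 sample was left out, highest without WT207. Gpnmb stayed between 1.54 and 1.97. The stricter filter removed Cd5l and Mertk, and Mertk also fell below the filter with 12 libraries.

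Counts of called genes depended strongly on the processing. In the order of all genes between genotypes (25), all genes between ranges (69) and related genes between genotypes (1), they were 16, 119 and 0 with upper quartile scaling, 221, 815 and 7 with DESeq2, 73, 219 and 3 without a filter, 3, 47 and 0 at a minimum count of 50, 15, 88 and 0 with the legacy option, 751, 2855 and 23 with 12 libraries as separate samples and 131, 1285 and 4 with voomLmFit. With a term for the range the genotype counts were 85 and 3, and without a term for genotype the range count was 7. Leaving out 1 sample gave 1 to 81, 2 to 173 and 0 to 3. The causes were not tested, except that libraries of 1 sample are not independent.

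The titles give every sample number a library 1 and 2. With that digit as a replicate block the counts were 717, 3039 and 22. Across genotypes, libraries of the same digit had a median correlation of deviations of 0.06 (-0.22 to 0.31). For the other pairs it was -0.04 (-0.23 to 0.22), and these ranges overlap. What the digit stands for is not stated, and whether libraries of the same digit shared a step was not tested. The C1qa share (-1.15 percentage points) ranged over -2.48 to 1.41 with 1 sample left out. None of the alternatives that kept all samples turned its sign. For Mertk, Cd5l and the Ythdc1+/+ values of Gpnmb, low read numbers limit precision.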
